A study of Mus musculus with 3 samples.

Results

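Single-cell RNA libraries of sorted lung cells from MMTV-HER2/Neu mice were read for the 10 genes of the ErbB signalling system: the receptor genes Erbb2, Erbb3, Erbb4 and Egfr, and the ligand genes Areg, Ereg, Hbegf, Nrg1, Btc and Tgfa. They are 10 of the 27998 genes in the count matrices, and all 10 were found by symbol. MMTV-HER2/Neu mice (FvB strain) carry an extra copy of the HER2/Neu receptor gene driven by the MMTV promoter, which is active mainly in mammary epithelium, and they form mammary tumours. The late HER2-positive library holds CD45- HER2+ lung cells from mice older than 20 weeks that bore primary tumours. The early HER2-positive library holds CD45- HER2+ lung cells from mice of 14 to 18 weeks without a palpable tumour, and the early HER2-negative library holds the CD45- HER2- lung cells of such mice. The submitters call the HER2-positive cells breast cancer cells and the HER2-negative ones non-cancer lung cells. All mice carry the transgene, cells of mice without it are not analysed here, and the number of mice pooled in a library is not given in the sources used here. Each group is 1 library, so no test between groups was possible. Every interval is a 95% interval that covers counting error only, and stage, age, animal and library cannot be told apart.

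ErbB receptors are tyrosine kinases of the cell surface that signal as pairs. Egfr binds Areg, Tgfa, Btc, Ereg and Hbegf. Erbb3 and Erbb4 bind neuregulins such as Nrg1, and the ligands of Egfr and Erbb4 are not exclusive sets. Erbb2, the HER2 receptor, has no known soluble ligand of its own and acts as the partner of the others, and Erbb3 has little kinase activity and signals through its partner. The ligands are made as membrane proteins and are cut free by sheddases such as Adam17. In the lung this system is known for the growth and repair of the alveolar and airway epithelium, and in the mammary gland for ductal growth and milk secretion.

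Cells (barcodes with at least 1000 unique molecular identifiers, UMIs, and under 25% of them from mitochondrial genes) were put in the first class whose rule they met, with the UMIs of the rule's genes added together. The mammary class had at least 1% of UMIs from the milk protein gene Csn3 and Wfdc18, and the alveolar type 2 (AT2) class at least 10% from the surfactant gene Sftpc. The airway class had at least 3 UMIs of Cyp2f2 and Foxj1, the endothelial class 2 of Cldn5 and Cdh5, the mural class (pericytes and smooth muscle) 2 of Higd1b, Cox4i2 and Myh11, and the fibroblast class 2 of Pdgfra and Col1a2. An alveolar type 1 (AT1) class, with at least 3 UMIs of Ager and Rtkn2, was added here from the cells of no other class. The late HER2-positive library held 161 mammary, 3996 AT2, 196 airway, 486 endothelial, 931 mural, 71 fibroblast and 71 AT1 cells. In the early HER2-positive library there were 0 mammary, 3939 AT2, 155 airway, 1558 endothelial, 1352 mural, 268 fibroblast and 138 AT1 cells. The early HER2-negative library held 5186 endothelial, 221 mural and 684 fibroblast cells, with 46 AT2, 39 AT1 and 1 airway cell. The other 100, 212 and 239 cells of these libraries stayed unclassified.

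The libraries held 6012, 7622 and 6416 cells with medians of 8075, 5318.5 and 3166 UMIs, in the order late HER2-positive, early HER2-positive, early HER2-negative, and pairs of them shared 10 to 18 cell barcodes. Of the marker lists, those of mammary and AT2 cells hold no gene of the class rules, while the airway, endothelial, mural, fibroblast and AT1 lists share some with them. The summed level of 8 mammary markers was 32952 CPM (UMIs per 1000000 UMIs of the class) in the mammary class and at most 1087 CPM in the other named classes of the late library, 7 AT2 markers stood at 45973 CPM in AT2 cells and at most 7166 CPM in those classes, and 7 leukocyte markers together stayed under 10 CPM in every named class. RNA of other cells was present too. Sftpc stood at 2423 CPM in late and 7064 CPM in early HER2-positive mural cells, against 28.3 CPM in HER2-negative ones, and 1161 late HER2-positive, 1501 early HER2-positive and 227 early HER2-negative cells met more than 1 class rule. Barcodes of 1 to 100 UMIs, which hold free RNA and remains of cells, had Hbegf at 44.2, 60.4 and 47.9 CPM, Erbb2 at 34.1, 21.9 and 14.7 CPM, Areg at 55.8, 35.3 and 1.23 CPM and Egfr at 7.61, 7.77 and 6.14 CPM in the late HER2-positive, early HER2-positive and early HER2-negative libraries. Some class levels lay far below these values. Hbegf stood at 2.70 CPM in late mammary cells and at 4.02 CPM in HER2-negative fibroblasts. The part of such RNA in class levels near these values was not measured.

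Erbb2 was high in the mammary class and at most 26.9 CPM in the other named classes of at least 50 cells (plot of receptor levels). The mammary class held 1137 Erbb2 UMIs, or 307 CPM (290 to 326). The other 6 classes of the late library ran from 26.9 CPM in airway cells through 22.1 in mural, 18.9 in endothelial, 16.2 in AT2 and 15.8 in AT1 cells to 7.76 in fibroblasts, and no neighbours in that order differed beyond counting error. In the early HER2-positive library the classes spanned 13.1 CPM in fibroblasts to 26.7 in mural cells, again with no difference between neighbours beyond counting error. Classes further apart in these orders were not compared, so equal levels across classes cannot be read from them. In the HER2-negative library, mural cells at 23.4 CPM and endothelial cells at 18.4 CPM did not differ beyond counting error, while endothelial cells exceeded fibroblasts, at 9.76 CPM, by a ratio of 1.89 (1.32 to 2.77). HER2 protein was the sort marker, so Erbb2 cannot be read as a result between HER2-positive and HER2-negative cells, and its levels there serve as a label check. Within a class, intervals of the ratio between the sides of the sort held 1: the level was 19.6 CPM in early HER2-positive and 18.4 in early HER2-negative endothelial cells (ratio 1.06, 0.861 to 1.31), 26.7 and 23.4 in mural cells (1.14, 0.702 to 1.96), and 13.1 and 9.76 in fibroblasts (1.34, 0.703 to 2.47). Over all cells Erbb2 was at 39.8 CPM in the late HER2-positive, 19.7 in the early HER2-positive and 16.9 in the early HER2-negative library. The mammary class held 55.9% of the late library's Erbb2 UMIs in 2.68% of its cells. Erbb2 (ENSMUSG00000062312) lies on chromosome 11 from 98412470 to 98437716 on the plus strand (GRCm38/mm10, GENCODE) and overlaps Mien1 on the other strand. Mien1 stood at 475 CPM in the mammary class and 128 CPM in the AT2 class, and whether counting used the strand is not given in the sources used here. Reads of the transgene are counted only as far as they align to the mouse gene.

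Nearly every mammary cell contributed. Erbb2 was found in 146 of the 161 cells, with a median of 6 UMIs per cell, quartiles of 2 and 10 and a highest value of 42. Mammary cells were also deeper, with a median of 22179 UMIs against 8837 in AT2 cells. After thinning each cell to 1000 UMIs, Erbb2 was seen in 29.2% of mammary cells (22.3 to 36.9) and 1.20% of late AT2 cells, while the unthinned shares were 90.7% and 13.3%. Around the mammary threshold, 20 unclassified late cells with 0.1% to 1% of UMIs from Csn3 and Wfdc18 held Erbb2 at 218 CPM, 23 mammary cells with 1% to 2% were at 375 CPM, and the 80 unclassified cells under 0.1% were at 46.6 CPM.

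**Figure D1:**
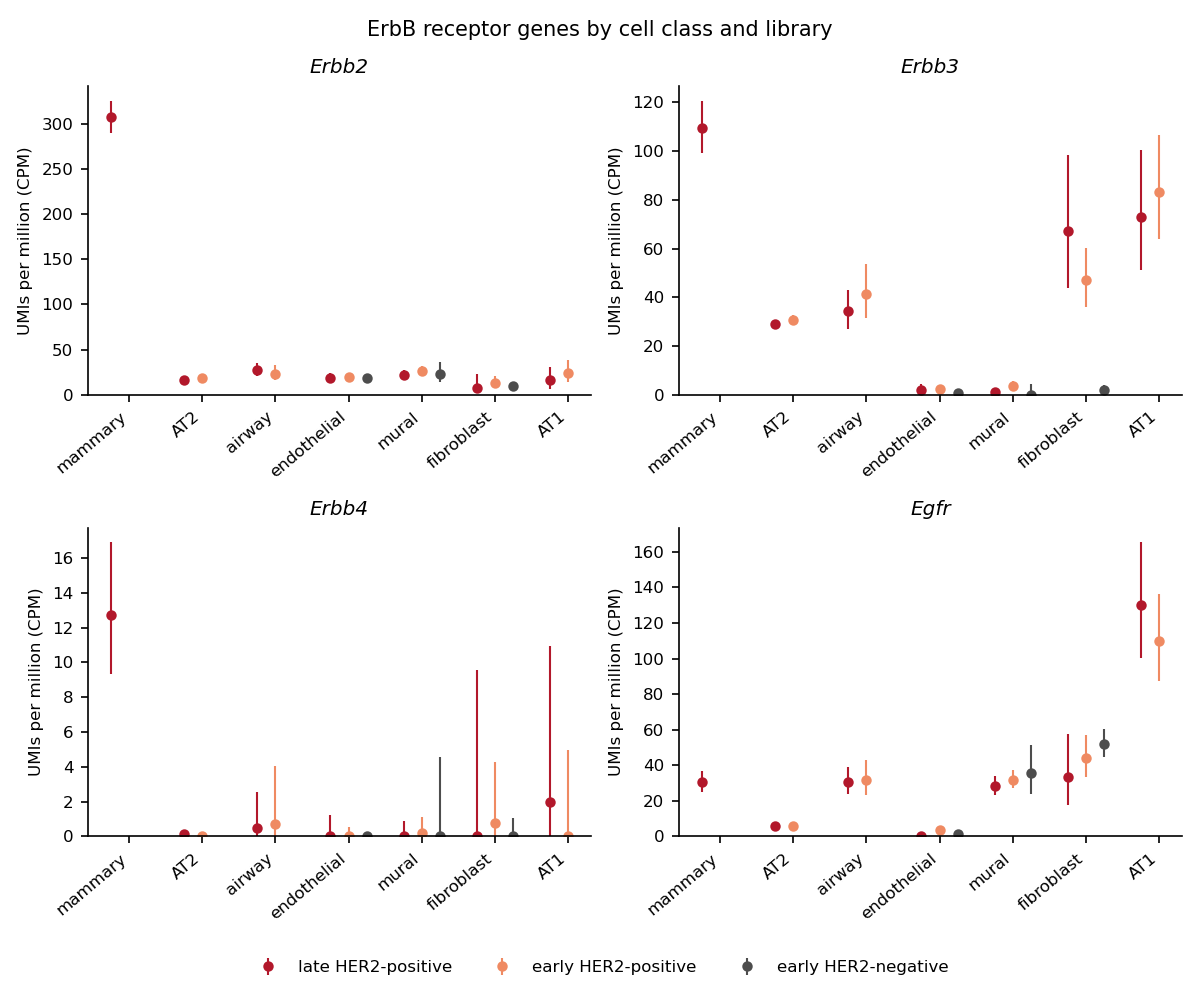
Level of each receptor gene in UMIs per 1000000 UMIs (CPM, linear axis, one scale per gene) by cell class, for classes of at least 50 cells; points are the late HER2-positive, early HER2-positive and early HER2-negative libraries from left to right and bars are exact Poisson 95% intervals. Erbb2 and Erbb4 stand out in the mammary class, Egfr in AT1 cells, and Erbb3 in mammary, AT1 and fibroblast-class cells.

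Erbb3, the kinase-poor partner that binds neuregulins, was an epithelial receptor in these cells, with an exception in the fibroblast class. It stood at 110 CPM in the mammary class (405 UMIs, 99.1 to 121), 72.8 in AT1, 34.2 in airway and 29.1 in AT2 cells of the late library. In the early HER2-positive library it stood at 83.1 CPM in AT1, 41.3 in airway and 30.5 in AT2 cells. Endothelial and mural cells were near 0 in every library, at 1.99 and 0.98 CPM in the late, 2.37 and 3.46 in the early HER2-positive, and 0.51 and 0 CPM in the HER2-negative library. The ratio of the mammary level to that of the next class, AT1, had an interval of 1.07 to 2.17, while AT1 and fibroblast cells of the late library did not differ beyond counting error.

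In the fibroblast class Erbb3 stood at 67.2 CPM in the late and 47.0 CPM in the early HER2-positive library, against 2.01 CPM in the early HER2-negative one. A minority of cells held it, 16 of 71 late HER2-positive cells (26 UMIs) and 32 of 268 early HER2-positive cells (61 UMIs), against 3 of 684 early HER2-negative cells (7 UMIs).

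Egfr, the receptor of most ligands listed, was highest in AT1 cells and low in AT2 and endothelial cells. AT1 cells held 130 CPM (66 UMIs) in the late and 110 CPM (82 UMIs) in the early HER2-positive library, and the 39 AT1 cells of the HER2-negative library were at 195 CPM. Fibroblast, airway, mammary and mural cells of the late library formed a middle group from 33.6 to 28.3 CPM, without differences beyond counting error between neighbours. AT2 cells were at 5.88 CPM in the late and 5.70 CPM in the early HER2-positive library. Endothelial cells were at 0.332 CPM (1 UMI) in the late, 3.85 (26 UMIs) in the early HER2-positive and 1.43 (25 UMIs) in the HER2-negative library. Among mural cells Egfr was lower in those with at least as many UMIs of Higd1b and Cox4i2 as of Myh11 (23.1 CPM, 744 cells) than in the Myh11-dominant ones (40.9 CPM, 187 cells) in the late library, and the early HER2-positive values were 28.8 and 36.0 CPM with an interval of the ratio that held 1.

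Erbb4, a neuregulin receptor that drives milk secretion in the mammary gland, was nearly confined to the mammary class among the classes measured. There were 47 UMIs in 39 of the 161 mammary cells, or 12.7 CPM (9.34 to 16.9). All other named classes of the late library together held 8 UMIs, with 6 of them in the 3996 AT2 cells (0.164 CPM), and late endothelial, mural and fibroblast cells held none. The 100 unclassified late cells held the other 11. The count of 0 in late mural cells allows up to 0.737 CPM. The early HER2-positive library held 4 Erbb4 UMIs in all, and the early HER2-negative library none.

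Ligand genes had another map (plot of ligand levels). Areg, the amphiregulin gene, belonged to AT2 and airway cells. It stood at 112 CPM in late AT2 cells (4106 UMIs, 109 to 116) and 74.4 CPM in early HER2-positive AT2 cells (2156 UMIs, 71.3 to 77.7). Airway cells were at 115 CPM in the late and 145 CPM in the early HER2-positive library. The mammary class held 8 Areg UMIs, 2.16 CPM, of which 75.0% lay in 1 cell. AT1 cells were at 154 CPM in the late and 30.8 CPM in the early HER2-positive library, but 83.3% and 69.6% of these UMIs came from 1 cell each, so the AT1 level describes those cells more than the class. Likewise 25 of the 26 Areg UMIs of late mural cells were in 1 cell (96.2%).

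Within the airway class Areg followed the cilia genes. Cells with at least 3 UMIs in sum of Foxj1, Ccdc153 and Dynlrb2, genes of ciliated cells, had 183 CPM (119 cells), against 41.6 CPM in the 77 other airway cells of the late library, a ratio of 4.39 (3.16 to 6.23). In the early HER2-positive library the values were 243 CPM (91 cells) and 25.8 CPM (64 cells), a ratio of 9.42 (5.65 to 16.8). Btc, the betacellulin gene, ran the other way: it held 3.53 CPM in cilia-gene cells and 21.8 CPM in other airway cells of the late library, and 1.32 and 17.7 CPM in the early HER2-positive one. This split was made after the airway levels were seen.

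In endothelial and mural cells Areg was low and was found beside RNA of AT2 cells, whose part was not tested. Late endothelial cells held 8 Areg UMIs, which is 0.818 per 1000 Sftpc UMIs, against 0.509 in the AT2 class itself. Early HER2-positive endothelial and mural cells held 0.698 and 0.259 per 1000, against 0.341 in their AT2 class. Late mural cells, with most of their Areg in 1 cell, held 2.64, and early HER2-positive fibroblast-class cells 2.25. Airway cells were far from that proportion, at 20.4 in the late and 12.4 in the early HER2-positive library. In the HER2-negative library, where Sftpc was low, Areg had 0 UMIs in 5186 endothelial cells, which allows up to 0.171 CPM, and 0 in mural and fibroblast cells, which allows up to 3.69 and 0.861 CPM. Its 46 AT2 cells held 26 Areg UMIs (73.1 CPM), 57.7% of them in 1 cell.

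Areg (ENSMUSG00000029378) lies on chromosome 5 from 91139599 to 91148432 on the plus strand (GRCm38/mm10), in a row with Ereg and Btc. Its promoter is shown because Areg is the member that passed 1.5-fold between late and early HER2-positive AT2 cells with an interval that excluded 1. The 250 bases before its start (RefSeq, GRCm38.p6, chr5:91139349-91139598, plus strand) read, with the matches in capitals:
Areg: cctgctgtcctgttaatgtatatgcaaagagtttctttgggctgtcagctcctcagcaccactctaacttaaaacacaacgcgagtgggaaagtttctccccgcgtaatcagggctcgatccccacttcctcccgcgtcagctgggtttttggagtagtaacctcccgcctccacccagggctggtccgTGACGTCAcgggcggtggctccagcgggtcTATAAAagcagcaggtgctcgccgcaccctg
The first capitals are TGACGTCA, the cAMP response element, with its first base 61 bases before the start, and the second are the TATA box motif TATAAA, which begins 31 bases before it. Both strands were searched. Of 32851 promoters of the same length 1.55% held TGACGTCA and 12.4% TATAAA. The AP-1 element TGANTCA, in 6.75% of promoters, was not among these letters. Of the 6 members with a promoter in the table (Erbb2, Erbb4, Egfr, Areg, Btc and Tgfa), Areg alone held the first or second motif. These matches are descriptions of sequence and not of binding.

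**Figure D2:**
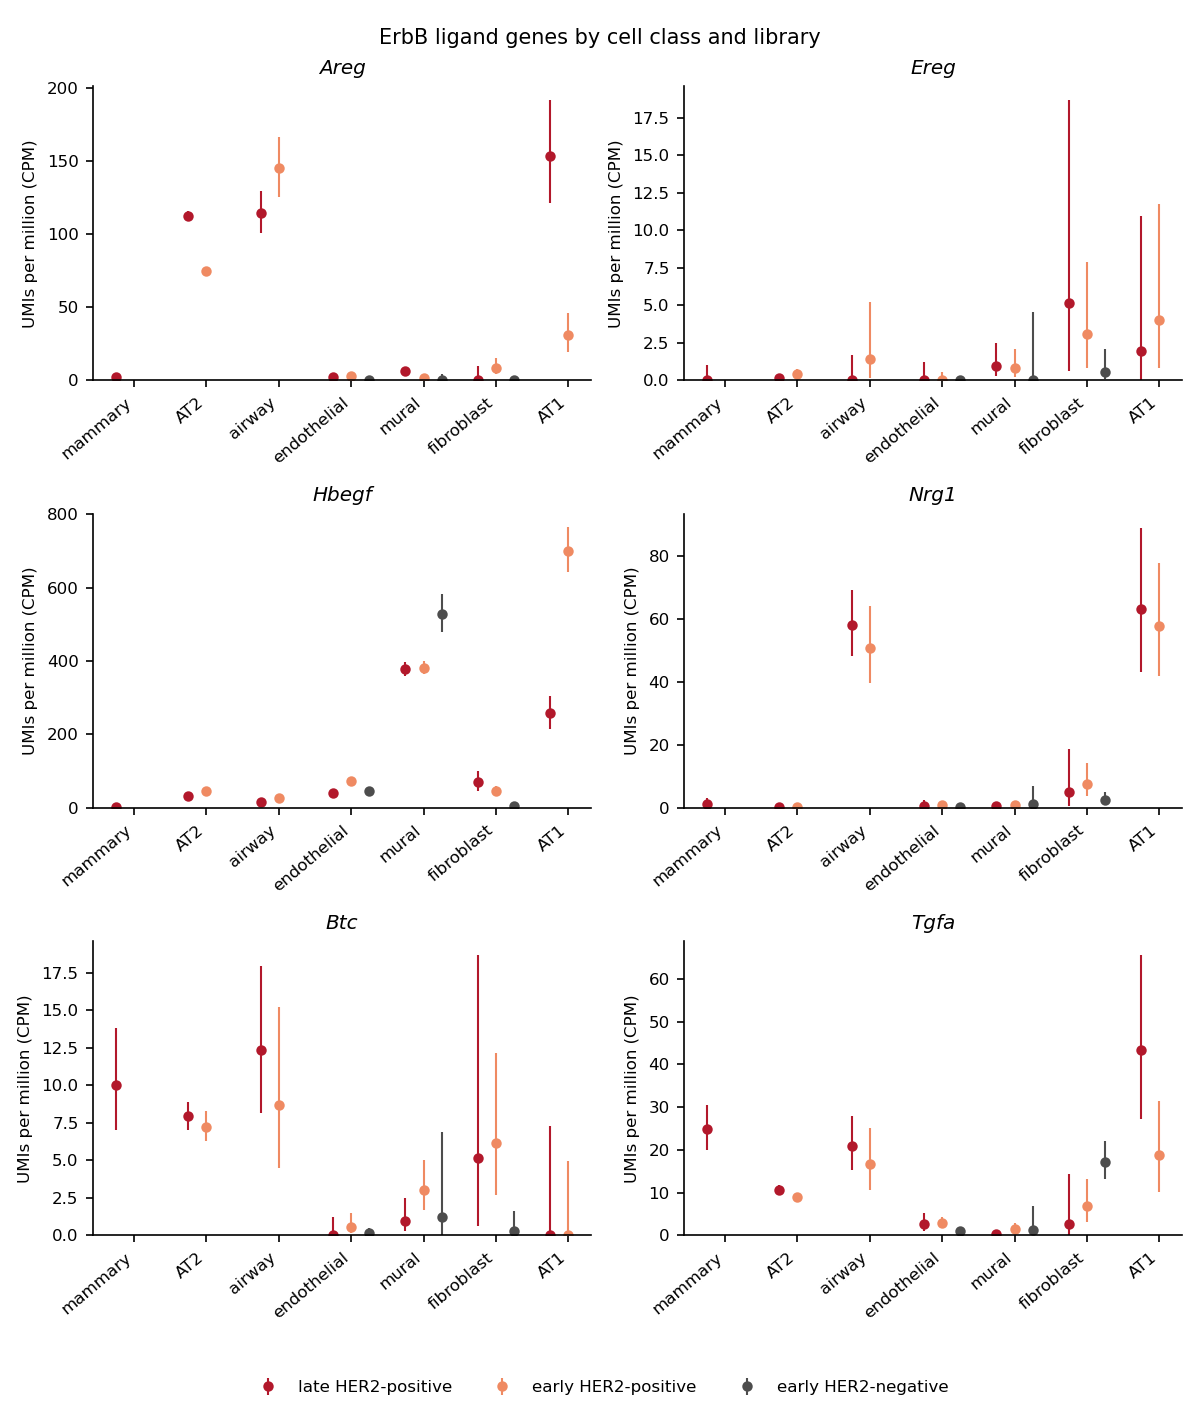
Level of each ligand gene in UMIs per 1000000 UMIs (CPM, linear axis, one scale per gene) by cell class, for classes of at least 50 cells; points are the late HER2-positive, early HER2-positive and early HER2-negative libraries from left to right and bars are exact Poisson 95% intervals. Areg is at 112 and 74.4 CPM in late and early AT2 cells, Hbegf is high in mural and AT1 cells of every library shown, and Nrg1 in airway and AT1 cells.

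Hbegf, which encodes heparin-binding EGF, was the ligand gene of mural and AT1 cells. Mural cells held 378 CPM in the late (1540 UMIs), 381 CPM in the early HER2-positive (1873 UMIs) and 529 CPM in the early HER2-negative library (430 UMIs). After thinning it was seen in 30.4%, 29.1% and 38.5% of mural cells (medians of 3993, 3180 and 3522 UMIs), against 0.621% of late mammary cells. AT1 cells held 258 CPM in the late and 701 CPM in the early HER2-positive library, and the 39 HER2-negative AT1 cells 742 CPM. Endothelial cells held 40.4, 72.2 and 45.4 CPM in the late, early HER2-positive and early HER2-negative libraries, close to the barcodes of 1 to 100 UMIs. AT2 cells held 32.8 CPM in the late and 46.6 CPM in the early HER2-positive library, and the mammary class 2.70 CPM (10 UMIs in 7 cells).

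Mural Hbegf sat in the cells with pericyte genes. Cells with at least as many UMIs of Higd1b and Cox4i2 as of the smooth muscle myosin gene Myh11 were at 520 CPM in the late, 623 CPM in the early HER2-positive and 752 CPM in the HER2-negative library. Myh11-dominant cells were at 29.0, 74.8 and 8.23 CPM (2 UMIs in the last) in the same libraries (plot of levels within classes). The ratios were 17.9 (12.8 to 26.0) in the late and 8.33 (7.09 to 9.85) in the early HER2-positive library. The split was chosen after the class levels were seen.

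Nrg1, the neuregulin 1 gene, whose product binds Erbb3 and Erbb4, was found in airway and AT1 cells and hardly elsewhere. Airway cells held 58.0 CPM in the late (127 UMIs in 72 of 196 cells) and 50.8 CPM in the early HER2-positive library (70 UMIs in 52 of 155 cells). AT1 cells held 63.0 and 57.6 CPM. AT2 cells, at 0.355 and 0.207 CPM, and mammary cells, at 1.35 CPM (5 UMIs in 3 cells), were near 0. Within the airway class it was 1.64 times (1.13 to 2.41) higher in cilia-gene cells than in the others in the late library and 3.28 times (1.80 to 6.37) in the early HER2-positive one.

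Tgfa, the gene of transforming growth factor alpha, was measured in every epithelial class: 24.9 CPM in the mammary class, 43.3 in AT1 and 10.6 in AT2 cells of the late library, with airway cells between 15.4 and 28.0 CPM by their interval, and 18.8, 16.7 and 8.87 CPM in AT1, airway and AT2 cells of the early HER2-positive one. It was also found in HER2-negative fibroblasts, at 17.2 CPM (60 UMIs in 50 cells). Btc was at 10.0 CPM in the mammary class, 12.3 in airway and 7.93 in AT2 cells of the late library, with 0 UMIs in AT1 cells of both HER2-positive libraries, which allows up to 5.91 CPM in the late one. Ereg, the epiregulin gene, had 14 UMIs in the whole late, 26 in the early HER2-positive and 2 in the early HER2-negative library, too few to place.

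**Figure D3:**
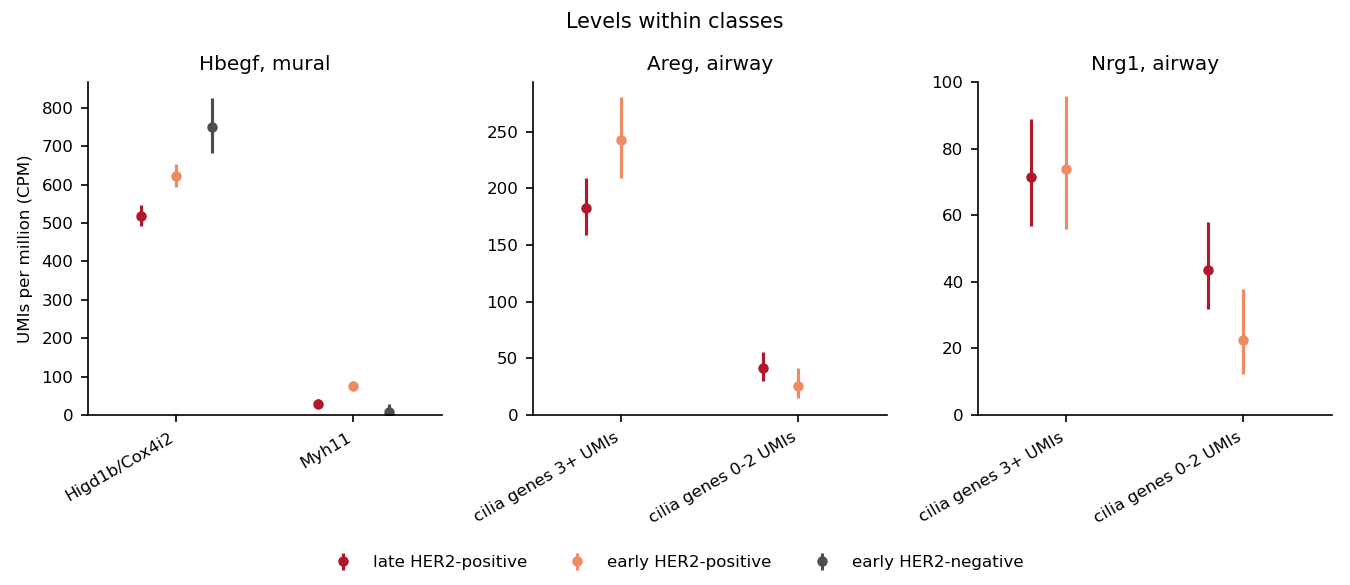
Levels in UMIs per 1000000 UMIs (CPM, linear axes) of member genes in parts of a class, with exact Poisson 95% intervals; libraries run late HER2-positive, early HER2-positive and, for Hbegf, early HER2-negative from left to right. Hbegf is at 520, 623 and 752 CPM in Higd1b and Cox4i2 cells of the mural class, and Areg and Nrg1 are higher in airway cells with cilia genes.

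Read as senders and receivers, the classes held different members. Mammary cells held UMIs of all 4 receptors, Tgfa at 24.9 CPM and Btc at 10.0 CPM, and little of Areg, Hbegf and Nrg1. Of ligand genes outside the 10, Egf was found in 66 and the neuregulin gene Nrg2 in 60 of 161 mammary cells. Airway cells held Areg and Nrg1 together with Egfr and Erbb3, the receptors at 30.6 and 34.2 CPM in the late library. AT1 cells held Egfr and Erbb3 together with Hbegf, Nrg1 and Tgfa. AT2 cells held Areg with low Egfr, mural cells Hbegf with Egfr at 28.3 CPM and hardly any Erbb3, and endothelial cells had hardly any Egfr or Erbb3. Within single cells, Erbb2 and Erbb3 were both seen in 121 of 161 mammary cells (75.2%, 67.7 to 81.6) and in 131 of 3996 late and 131 of 3939 early HER2-positive AT2 cells (3.28% and 3.33%). At 1000 UMIs per cell those shares were 1.86%, 0.0501% and 0.152%. Nrg1 and Erbb3 were both seen in 17 of 196 late and 13 of 155 early HER2-positive airway cells and in 12 of 71 and 14 of 138 AT1 cells. Hbegf and Egfr were both seen in 26 of 71 late and 41 of 138 early HER2-positive AT1 cells. Tgfa and Egfr were both seen in 31 of 161 mammary cells (19.3%, 13.5 to 26.2). At 1000 UMIs per cell Nrg1 and Erbb3 were left together in 1 of 196 late airway cells and in 0 of the early airway and of both sets of AT1 cells, Hbegf and Egfr in 0 of 71 late and 3 of 138 early AT1 cells, and Tgfa and Egfr in 0 of 161 mammary cells. Co-detection says nothing of the proteins or of signalling.

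The mammary class was then set against the AT2 class of the same library, the most frequent epithelium there. A gene with at least 10 UMIs over both sides was called when the ratio reached 1.5-fold either way. Of the 9 members measured, 6 were higher and 2 lower in mammary cells, while 69.2% of all genes measured passed this threshold, 45.2% higher and 24.0% lower, so the count of 8 among 9 is little more than that background and the sizes carry the description. All 4 receptors were higher: Erbb2 19.0-fold (17.2 to 20.98), Erbb4 77.5-fold (33.1 to 222, 47 and 6 UMIs), Egfr 5.20-fold (4.10 to 6.56) and Erbb3 3.77-fold (3.35 to 4.23). Tgfa was 2.35-fold higher (1.85 to 2.96), and Nrg1 3.81-fold (1.06 to 11.4) on 5 and 13 UMIs. Areg stood at 0.0193 (0.00832 to 0.0380) and Hbegf at 0.0824 (0.0394 to 0.152) of the AT2 level, and Btc at 1.26 (0.871 to 1.78) was not called. The median log2 ratio of all genes was 0.43, and relative to that shift Erbb2 was 14.0-fold, Erbb3 2.79-fold, Egfr 3.85-fold and Tgfa 1.74-fold higher.

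The rest of the pathway did not move as a block. Beside the counts below, 45.2% of all genes were higher and 24.0% lower. Of the 5 other ligand genes, Egf and Nrg2 had enough UMIs and both were higher in mammary cells: Egf stood at 26.5 CPM (98 UMIs in 66 of 161 cells) against 0.164 in AT2 cells, 162-fold (71.6 to 451), and Nrg2, a second neuregulin, at 24.3 CPM (90 UMIs in 60 cells) against 0.246, 98.9-fold (49.9 to 223). Among 7 sheddases and their regulators 1 was higher and 2 lower. The metalloprotease gene Adam12 was 260-fold higher (105 and 4 UMIs), Timp3, an inhibitor of sheddases, stood at 0.198, and Rhbdf2, a partner of Adam17, at 0.599 of the AT2 level. Of 21 adaptors and kinases 5 were higher and 6 lower, the highest being the phosphoinositide 3-kinase subunits Pik3r1 (2.78-fold) and Pik3cb (2.42-fold) and the lowest the subunit Pik3ca (0.349) and the phospholipase Plcg1 (0.394). Negative regulators split 6 and 6 of 16, with Spry4 at 16.6-fold and the ERK phosphatase Dusp6 at 8.93-fold (8.18 to 9.74), against Socs3 at 0.126 and Spry1 at 0.184. Of 10 genes downstream of ERK 5 were higher and 3 lower: Etv4, an ETS factor, was 353-fold higher (107 and 3 UMIs, 118 to 1738) and Ier3 19.2-fold, while the related Etv5 stood at 0.420 and Plaur at 0.341 on 2 and 58 UMIs with an interval holding 1. Median log2 ratios of these lists ran from -0.41 (sheddases) to 0.99 (ERK output), apart from 6.98 for the other ligands. The dissociation and immediate early list had 1 higher and 11 lower of 17, with Socs3 at 0.126 and Dusp1 at 0.277.

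**Figure D4:**
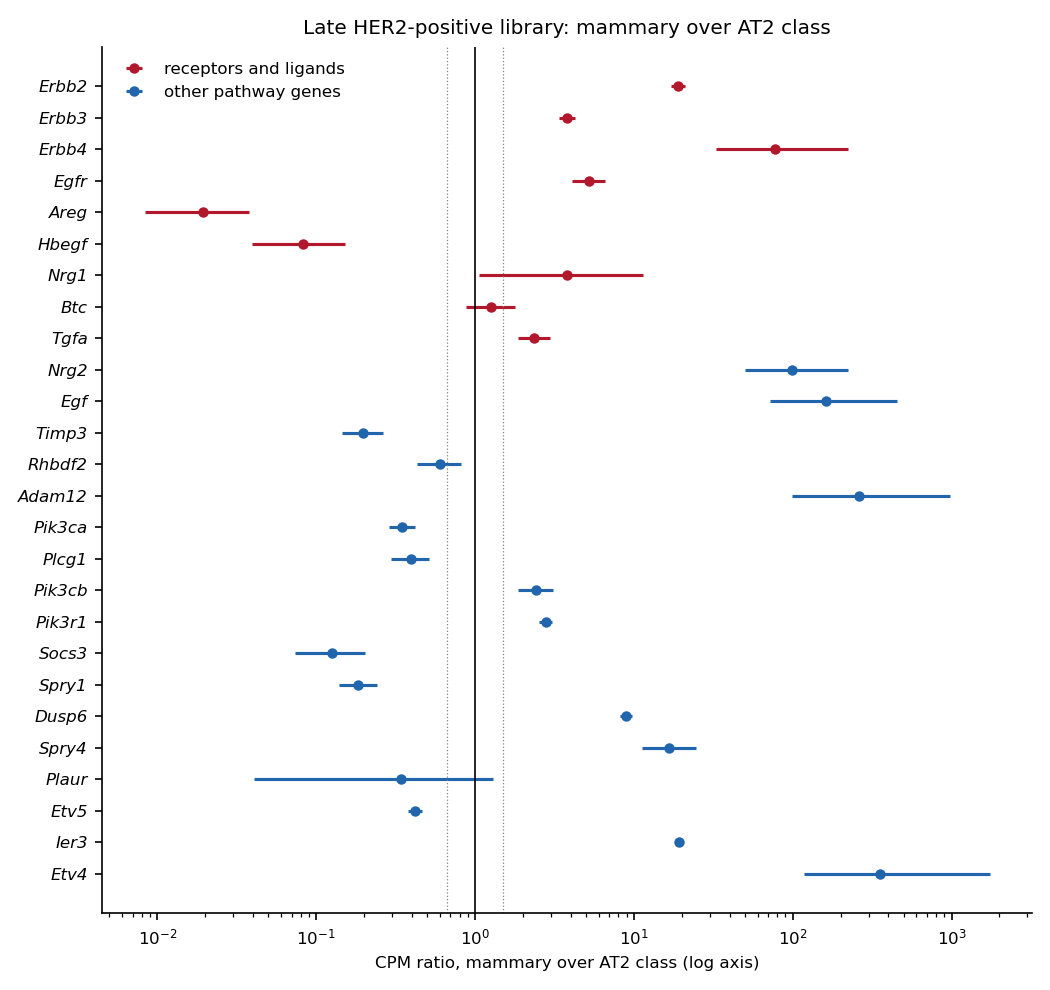
Ratio of CPM in the mammary class over the AT2 class of the late HER2-positive library (log axis) with exact conditional 95% intervals, for the members with at least 10 UMIs over both classes (red) and the pathway genes named in the text (blue); dotted lines mark 1.5-fold. The 4 receptors lie to the right of 1, Areg and Hbegf far to the left, and Egf, Nrg2, Adam12 and Etv4 beyond 90-fold.

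Dividing mammary cells (at least 3 UMIs of Mki67, Top2a, Cenpf, Ccnb1 and Birc5 together, 39 cells) held Erbb2 at 257 CPM, against 330 CPM in the 122 others, a ratio of 0.779 (0.680 to 0.891). Erbb3 ran the other way, at 139 CPM in dividing and 96.3 CPM in the other mammary cells, a ratio of 1.44 (1.18 to 1.77). Sftpc stood at 776 CPM in the dividing and 7438 CPM in the other mammary cells, and its part in these ratios was not tested. A fixed count of UMIs is also met more easily by deeper cells, and the part of depth was not tested.

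AT2 cells allow the late and early HER2-positive libraries to be compared within 1 class, 3996 against 3939 cells. Receptors stayed short of the threshold: Erbb2 was at 16.2 CPM in late and 18.5 in early cells (0.877, 0.779 to 0.988), Erbb3 at 0.953 (0.871 to 1.04) and Egfr at 1.03 (0.838 to 1.27) of the early level. Among ligands, Areg was 1.51-fold higher in late AT2 cells (1.43 to 1.59) and was seen in 1007 of 3996 late cells against 774 of 3939 early ones, and at 1000 UMIs per cell in 293 late and 197 early cells. Hbegf stood at 0.703 (0.650 to 0.760), short of the threshold, and Tgfa at 1.19 and Btc at 1.10 were close to level. Nrg1 (1.71, 13 and 6 UMIs) and Ereg (0.426, 7 and 13 UMIs) passed 1.5-fold with intervals that held 1. So 3 of 9 members passed, against 18.9% of all genes, 3.66% higher and 15.3% lower. The median log2 ratio of all genes was -0.10, and relative to it Areg was 1.62-fold higher. The Areg call is narrow: its ratio was 1.49 among cells that met 1 class rule alone, and it was also below 1.5 with equal weight per cell, at 1.46, and without the richest cell. The Hbegf ratio was 0.843 among cells that met 1 class rule alone. Hbegf in AT2 cells, at 32.8 CPM late and 46.6 CPM early, lay below its level in barcodes that hold free RNA and remains of cells. Those barcodes held 44.2 CPM late and 60.4 CPM early, while late mammary cells held 2.70 CPM. The part of such RNA in the AT2 levels behind this ratio was not measured. Airway markers in the AT2 class, all 7 detected in both libraries, summed to 2692 CPM in late and 1031 CPM in early cells (Scgb1a1 2440 and 824), and mural markers, also all detected, to 72.3 and 499 CPM. The part of these other cells' RNA in the Areg and Hbegf ratios was not tested otherwise.

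Immediate early genes, which tissue digestion can induce, were read beside Areg and Hbegf. Of 17 such genes 0 were higher and 7 lower in late AT2 cells, where 3.66% of all genes were higher and 15.3% lower. Atf3 at 0.361 and Dusp1 at 0.513 led these 7, and Fos stood at 0.663. In AT2 cells with at least 0.1% of UMIs from Fos, Hbegf was at 64.5 CPM, against 31.4 CPM in the other AT2 cells of the late library (2.06-fold, 1.66 to 2.52), and the early HER2-positive values were 89.0 and 41.2 CPM. Areg was at 164 CPM in Fos-high cells, against 110 CPM in the other AT2 cells of the late library (interval of the ratio 1.31 to 1.70), and stood at 80.8 against 73.6 CPM in the early HER2-positive one. Late over early, Areg was 2.03-fold higher (1.71 to 2.42) among Fos-high and 1.49-fold (1.41 to 1.58) among the other AT2 cells. Hbegf was at 0.725 (0.573 to 0.911) of the early level among Fos-high and 0.761 (0.699 to 0.829) among the other AT2 cells. Elsewhere in the pathway, 0 of 21 adaptors and kinases passed 1.5-fold, against 18.9% of all genes. Spry2 was 1.64-fold higher and Spry4 at 0.553 among 16 negative regulators. The sheddase gene Adam9 was 1.84-fold higher and Timp3 at 0.412. Of the ERK output list, Myc was 1.53-fold higher, Fosl1 1.82-fold on 23 and 10 UMIs with an interval holding 1, and Ier3 at 0.546. Nrg2 stood at 0.396 on 9 and 18 UMIs.

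**Figure D5:**
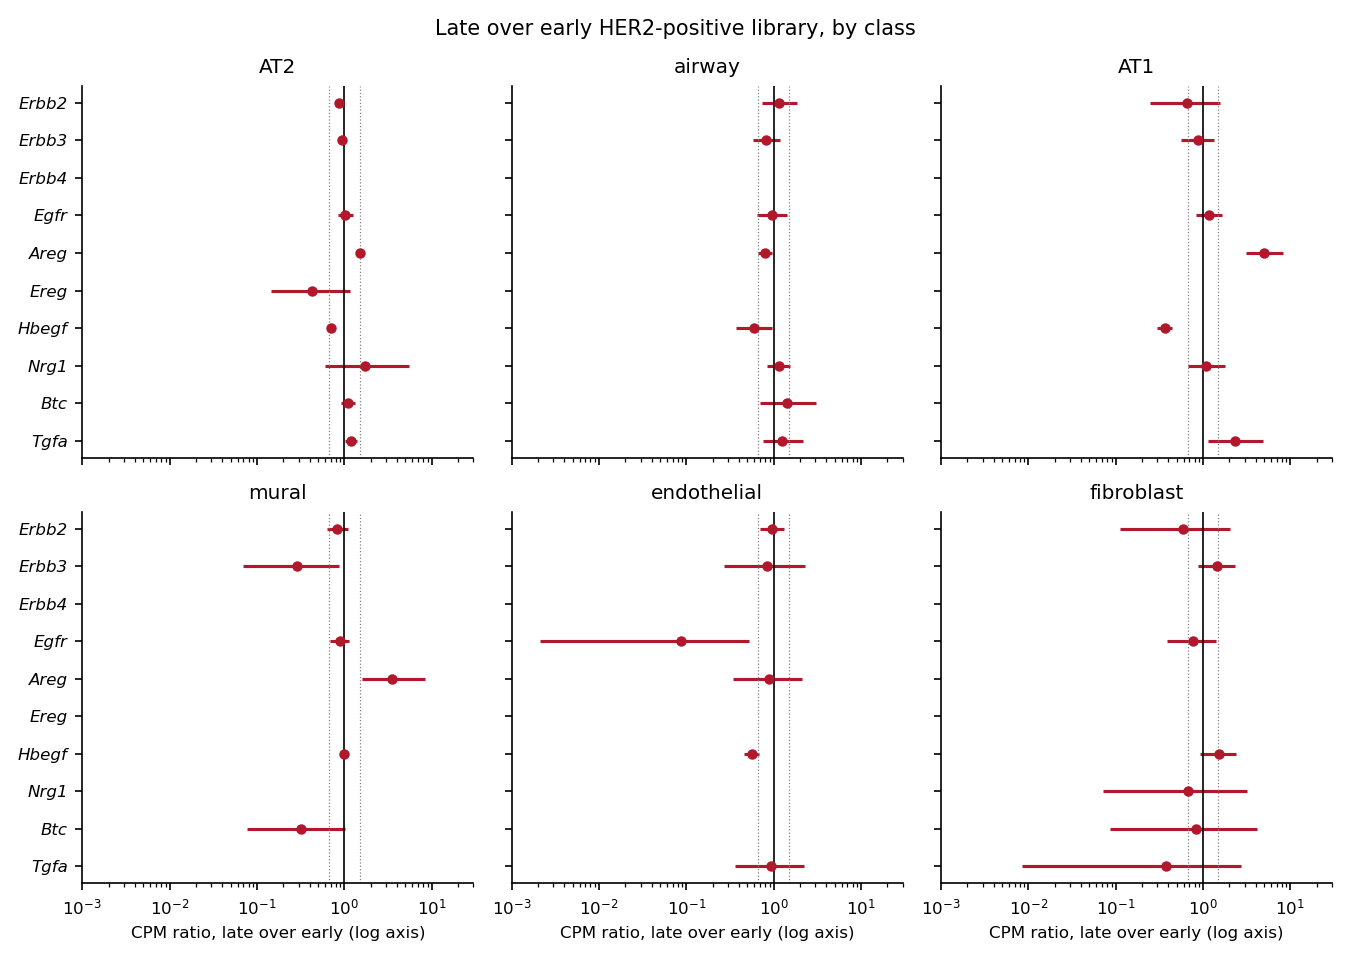
Ratio of CPM in the late over the early HER2-positive library (log axis) by class, with exact conditional 95% intervals, for members with at least 10 UMIs over both libraries and at least 1 UMI in each; dotted lines mark 1.5-fold. Areg is at 1.51 in AT2 cells, and Hbegf lies at 0.560 in endothelial and 0.368 in AT1 cells and at 0.992 in mural cells.

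In the other classes Hbegf was the member with the clearest late-to-early values, but only some stood above free RNA. Barcodes that hold free RNA and remains of cells had Hbegf at 44.2 CPM in the late and 60.4 CPM in the early HER2-positive library. Endothelial and airway levels lay near or below these values, while AT1 levels lay above them. The part of such RNA in these levels was not measured. Endothelial cells held Hbegf at 40.4 CPM in the late and 72.2 CPM in the early HER2-positive library, a ratio of 0.560 (0.456 to 0.685). AT1 cells held it at 258 and 701 CPM, a ratio of 0.368 (0.301 to 0.446). Airway cells stood at 16.9 and 28.3 CPM (0.597, 0.370 to 0.961, not called among cells of 1 class rule, with doubled class thresholds, with equal weight per cell or with scaling to the median ratio) and mural cells at 378 and 381 CPM (0.992, 0.927 to 1.06). Within the mural class both kinds of cell were lower in the late library, the Higd1b and Cox4i2 cells at 0.834 (0.778 to 0.894) and the Myh11-dominant ones at 0.387 (0.259 to 0.563), and the first kind made up 744 of 931 late and 898 of 1352 early cells. Hbegf of the Myh11-dominant cells, at 29.0 CPM in the late and 74.8 CPM in the early library, also lay near the free RNA values. Markers of other classes also differed between the libraries. In endothelial cells, mural markers summed to 282 CPM in the late and 649 CPM in the early library and AT1 markers to 940 and 1348 CPM, with every marker of both lists detected, and the Hbegf ratio was 0.579 among endothelial cells that met 1 class rule alone. In airway cells mural markers summed to 28.3 CPM in the late library (6 of 7 detected) and 969 CPM in the early one, and the Hbegf ratio was 0.768 among cells of 1 rule. In mural cells AT1 markers summed to 265 and 1040 CPM. The AT1 class held AT2 markers at 7166 CPM in the late and 2970 CPM in the early library, and AT1 markers at 31134 and 35832 CPM. The part of this make-up in the AT1 value was not tested.

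Of 17 immediate early genes, 14 were lower and 0 higher in late mural cells, where 12.7% of all genes were lower. In airway cells 10 were lower and 1 higher (20.5% of all genes lower), in endothelial cells 5 and 1 (12.0%), and in AT1 cells 3 and 4 (14.4% lower and 15.0% higher). Among endothelial cells with under 0.1% of UMIs from Fos the Hbegf ratio was 0.571 (0.461 to 0.703). The part of these genes in the mural, airway and AT1 values was not tested.

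Members called in these classes numbered 2 of 6 measured in endothelial cells (Hbegf and Egfr, which had 1 late and 26 early UMIs; 17.8% of all genes, 5.81% higher and 12.0% lower), 1 of 8 in airway cells (26.4%, 5.93% higher and 20.5% lower), 3 of 6 in mural cells (19.3%, 6.57% higher and 12.7% lower), 4 of 8 in fibroblast-class cells (32.2%) and 4 of 7 in AT1 cells (29.4%). The mural calls were Areg, which without its 1 cell of 25 UMIs turned to below the early level, and Erbb3 and Btc on 4 and 17 and on 4 and 15 UMIs. The fibroblast calls were Hbegf at 1.51 (27 and 60 UMIs), Erbb2 at 0.593 (3 and 17), Tgfa at 0.373 (1 and 9) and Areg with 0 and 11 UMIs, and all 4 intervals held 1. In AT1 cells Areg was 4.98-fold higher on 78 and 23 UMIs, mostly 1 cell in each library, Tgfa 2.31-fold (1.13 to 4.88) on 22 and 14 UMIs (1.18 to 2.66 over the alternative settings), and Erbb2 stood at 0.653 on 8 and 18 UMIs. Areg in airway cells (0.790, 0.653 to 0.956), Erbb3 in AT1 (0.877) and airway cells (0.828) and Nrg1 in airway (1.14) and AT1 cells (1.09) did not reach the threshold.

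The early libraries allow HER2-positive cells to be set against HER2-negative cells of the same class and age. In endothelial cells 5 of 6 members measured were higher in HER2-positive cells (20.1% of all genes passed, 13.0% higher and 7.06% lower): Hbegf 1.59-fold (1.42 to 1.78), Egfr 2.70-fold (26 and 25 UMIs), Tgfa 2.46-fold (19 and 20 UMIs), Erbb3 4.61-fold (16 and 9 UMIs) and Areg with 20 and 0 UMIs, which is 17.3-fold with the 0 taken as 3 counts and has an exact lower limit of 12.8. Of those Areg UMIs 45.0% lay in 1 cell. Sftpc stood at 4247 CPM in HER2-positive and 118 CPM in HER2-negative endothelial cells, and mural markers summed to 649 and 31.6 CPM with all 7 detected in both. The Hbegf ratio was 1.30 among endothelial cells that met 1 class rule alone, where its call was lost, as it was with equal weight per cell, and it ran up to 1.61 over the other settings. Among endothelial cells that met 1 class rule alone, Egfr was 14.95-fold, Tgfa 4.35-fold and Erbb3 3.49-fold higher. Each rests on at most the UMIs given above. The part of AT2 and mural RNA in these ratios was not tested otherwise. Point levels of Egfr, Erbb3, Tgfa and Areg lay below those of the barcodes of 1 to 100 UMIs in both libraries. HER2-positive endothelial cells held 3.85, 2.37, 2.82 and 2.96 CPM, against 7.77, 19.1, 3.53 and 35.3 in those barcodes. HER2-negative ones held 1.43, 0.514, 1.14 and 0 CPM, against 6.14, 2.46, 1.84 and 1.23. Hbegf was at 72.2 and 45.4 CPM, against 60.4 and 47.9. The part of the RNA of those barcodes in these levels was not measured. Mural cells had 2 of 5 members past the threshold (27.4% of all genes), Erbb3 with 17 and 0 UMIs and Btc with 15 and 1. Both intervals held 1, and Hbegf stood at 0.721 (0.649 to 0.802). Sftpc there was at 7064 and 28.3 CPM.

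In fibroblast-class cells 5 of 7 members passed (31.3% of all genes). Erbb3 was 23.4-fold higher in HER2-positive cells (10.7 to 60.6) and Hbegf 11.5-fold (6.35 to 22.3, 60 and 14 UMIs), Nrg1 2.98-fold (10 and 9 UMIs) and Areg had 11 and 0 UMIs, 72.7% of them in 1 cell, which is 9.84-fold with the 0 taken as 3 counts and has an exact lower limit of 6.73. Sftpc stood at 3766 CPM in HER2-positive and 21.8 CPM in HER2-negative fibroblast-class cells. AT1 markers (all 6 detected) summed to 520 and 177 CPM, mesothelial markers (all 3) to 83.1 and 23.5 CPM, and division genes (5 and 4 of 5 detected) to 41.6 and 6.601 CPM. Their part in these ratios was not tested. Hbegf was found in 30 of 268 HER2-positive and 13 of 684 HER2-negative cells of the class. Its levels were 46.2 and 4.02 CPM, against 60.4 and 47.9 in the barcodes of 1 to 100 UMIs. Areg, at 8.47 CPM in HER2-positive cells, lay below its 35.3 CPM in those barcodes. Erbb3 and Nrg1, at 47.0 and 7.70 CPM there, lay above their 19.1 and 2.82 CPM. The part of such RNA in these ratios was not measured. Tgfa ran the other way, at 6.93 CPM in HER2-positive and 17.2 CPM in HER2-negative cells, a ratio of 0.402 (0.176 to 0.816).

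Genes with the most similar pattern were found by Pearson's r of log2(CPM + 1) over the 19 combinations of class and library with at least 50 cells, among 10169 genes that reached 20 CPM in 1 of them. These points share libraries and depth, and the values are a description. Erbb2 was most like Prdx3 (0.95), Pfkl (0.94) and Uqcrfs1 (0.92), Erbb3 like Pak1 (0.96), Mbp (0.94) and Epb41l4b (0.93), and Egfr like Col4a5 (0.92), Phyh (0.89) and Col4a6 (0.89). Of the ligands, Areg was most like Kcne2, Foxa1 and Cpn1 (all 0.95), Hbegf like Map6 (0.92), Pde8b (0.88) and Specc1 (0.87), Nrg1 like Sema3e (0.92), Gsto1 (0.91) and BC030870 (0.90), and Tgfa like Tmc4 (0.90), Tob1 (0.89) and Tom1l1 (0.88).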

How the data were processed

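The deposited values are counts, per the labels and file headers: 3' UMIs per gene and barcode for 3 libraries (10X Chromium 3' v3), written by software 3.1.0 per the file headers. The build was mm10, per the submitters' processing notes. Not given in the sources used here were aligner, annotation and strand use. Matrices listed 6794880 barcodes and 27998 genes. Barcodes with at least 1000 UMIs and under 25% mitochondrial UMIs were kept, giving 51075059 late HER2-positive, 44541222 early HER2-positive and 23039097 early HER2-negative UMIs in cells. UMIs were summed per class and library and divided by the class total (CPM), with exact Poisson intervals. Ratios have exact conditional binomial intervals, and shares have Clopper-Pearson intervals after thinning each cell to 1000 UMIs. All intervals and floors (3 counts) cover counting error only. A ratio was called at 1.5-fold with at least 10 UMIs over both sides, and classes under 50 cells entered no comparison. A further split of the fibroblast class is not reported here. No doublet caller was run, and cells that met 1 class rule alone were an alternative. Other alternatives were a minimum of 500 or 2000 UMIs, a maximum of 10% mitochondrial UMIs, taking off the profile of the barcodes of 1 to 100 UMIs at 5% of the class total, a second random draw and no thinning for shares, doubled class thresholds, equal weight per cell, scaling to the median ratio, leaving out the barcode richest in a gene, and no count minimum. Named genes were all members, the 2 highest and 2 lowest called genes of each list in the mammary and AT2 comparisons, and the 3 genes of most similar pattern. Members and lists were chosen with earlier results of these data known. Ratios were run on simulated independent Poisson counts with known fold changes. That simulation holds no clumping of UMIs in single cells, so it cannot show how the intervals behave where 1 cell holds most UMIs. Python 3.11.15, numpy 2.4.6, scipy 1.17.1, pandas 2.3.3 and matplotlib 3.10.9 were used.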

Additional observations from a re-analysis of the deposited data

Results flagged for a closer look

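Tgfa differed in direction between classes in early HER2-positive over early HER2-negative cells. It was 2.46-fold higher in endothelial cells (19 and 20 UMIs) and stood at 0.402 of the HER2-negative level in fibroblast-class cells (9 and 60 UMIs). The difference between the classes was not tested, because each sort is 1 library. The fibroblast-class levels were 6.93 CPM in HER2-positive and 17.2 CPM in HER2-negative cells.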

How the results depend on the processing

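No paired analysis was possible because each group is 1 library and the result comes from no test. The number of members called stayed within 1.5 times its main value in 87 combinations of comparison and alternative and moved further in the other 14. Of 712 recomputed member ratios, 681 stayed within the counting interval of the main ratio. Intervals on few UMIs are wide and hard to leave, and settings that left no UMIs on a side gave no ratio. This count therefore does not measure how stable members of few UMIs are. With only barcodes that met 1 class rule, the calls went to 1 in AT2 cells late over early (main 3), 1 in mural cells (main 3), 2 in airway cells (main 1) and 1 in mural cells HER2-positive over HER2-negative (main 2). With doubled class thresholds they were 4 in endothelial cells late over early (main 2) and 4 in mural cells HER2-positive over HER2-negative. With no count minimum they were 6 in mural and 3 in airway cells late over early, and 6 in mural and 8 in fibroblast-class cells (main 5) HER2-positive over HER2-negative. In airway cells they were 2 at a minimum of 2000 UMIs, 2 without the richest barcode and 0 with equal weight per cell, and 2 in fibroblast-class cells late over early without the richest barcode (main 4). Reversed log2 ratios were those of Areg in mural cells and Erbb2 in AT1 cells, both late over early. Areg was at -0.61 with doubled thresholds and -2.54 without its richest barcode, which held most of its late UMIs (main 1.80). Erbb2 was at 0.29 with doubled thresholds (main -0.62). With those thresholds the AT1 class held 609 late and 457 early cells, in place of 71 and 138, so its cells were largely others. What moved the ratios with doubled thresholds was not tested otherwise. The class with the highest level differed in 13 of 100 cases. Depth limits members under about 10 UMIs per class, such as Ereg and Erbb4 outside the mammary class.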
